A study of Mus musculus with 4 samples.

Results

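The mRNA of smooth muscle and pericyte genes was followed in the lung across 4 libraries, 1 for each combination of exercise (E) and tumor (T). The genes were 10 symbols matched to the first column of the 4 deposited lung files, which hold 23282 rows each. They were Acta2, Myh11, Actg2, Tagln, Cnn1, Lmod1 and Des, which encode contractile and cytoskeletal proteins, and Pdgfrb, Notch3 and Cspg4, which encode surface receptors of mural cells. All 10 were found, and all 10 were among the 15164 rows whose normalized read counts averaged at least 4 over the libraries.

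The mice were male CDF1 animals, 10 per group, recorded in the labels at postnatal day 28, and 4 weeks old when purchased according to the methods, which place sampling at the end of the experiment and so at a later age. The normal control group, E(-)T(-), had neither treatment. The normal exercise group, E(+)T(-), ran on a motorized treadmill at high intensity. The cancer control group, E(-)T(+), was given cells of CT26, a colorectal carcinoma line of the mouse, through the tail vein, and the cancer exercise group, E(+)T(+), was given the cells and ran. Each group has 1 lung library, so that no difference between groups has a replicate check and no test between conditions was made. The study describes muscle RNA from a representative mouse of each group and a similar analysis of the lungs, and does not say outright whether a lung library came from 1 mouse or from a pool. RNA was sequenced from the poly(A) end of the transcripts, so that a read marks a transcript end.

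Vascular and airway smooth muscle cells contract through filaments of smooth muscle actin and smooth muscle myosin, and share much of their gene program with pericytes, the mural cells that wrap capillaries. Endothelial cells release platelet-derived growth factor B, which binds the receptor Pdgfrb on pericytes and recruits them to vessels, and they carry Notch ligands that engage Notch3 on neighboring mural cells. Transcription of many contractile genes is driven by serum response factor (Srf) and its coactivator myocardin (Myocd), which act at a short DNA element called the CArG box.

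All libraries held the 10 genes well above the smallest abundance the depth can show. The libraries held from 9354512 to 13368049 reads on genes, and a floor of 3 reads corresponded to 0.224 to 0.321 CPM (counts scaled to a common library total). The lowest member count was 18 reads, for Actg2 in E(-)T(+). Hemoglobin genes held 14.3% of the reads in the normal control, 14.2% in normal exercise, 1.43% in the cancer control and 31.4% in cancer exercise, which matters for the scaling of the 2 tumor libraries. A further check used 9 genes that had 500 or more normalized counts in the cancer control but no read in the normal control. All 9 had reads in normal exercise, at 0.642% to 2.18% of their cancer control level. The median share was 1.47%, and that share of the cancer control level amounts to 0.191% to 0.641% of the members' levels in normal exercise.

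The DNA near the start sites of the members is shown first, since all 10 were lower in the cancer control than in the normal control library and the CArG box is the element known for contractile genes. RefSeq promoter sequences (assembly GRCm38.p6) were matched for 6 of the 10 genes, Acta2, Cnn1, Des, Lmod1, Notch3 and Cspg4. The CArG box was searched on both strands over 300 bases, from 250 before to 50 after the start site. An exact match was present in 0 of the 6 promoters and in 1.63% of the 32851 promoters of the assembly. With 1 mismatch allowed, 3 of the 6 held a match, against 21.1% of all promoters. The RefSeq start sites of these genes are not those of the GENCODE gene models, which begin 217 bases earlier for Acta2, 6 earlier for Lmod1 and 71 earlier for Cspg4. For Lmod1 and Cspg4 the bases before both start sites follow, 5′ to 3′ on the plus strand, at chr1:135324563-135324806 and chr9:56864854-56865032, with the matches of at most 1 mismatch in capitals. Both matches of Acta2 lie in the UTR of the first exon of its longest GENCODE transcript (chr19:34255290-34255590), and are shown as sites of 30 bases on the minus strand, at chr19:34255438-34255467 and chr19:34255388-34255417.
Lmod1: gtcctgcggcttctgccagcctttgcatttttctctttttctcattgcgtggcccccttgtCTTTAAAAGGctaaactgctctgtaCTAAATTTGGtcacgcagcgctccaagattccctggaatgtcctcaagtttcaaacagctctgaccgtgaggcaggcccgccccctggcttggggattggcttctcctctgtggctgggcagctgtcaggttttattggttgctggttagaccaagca
Cspg4: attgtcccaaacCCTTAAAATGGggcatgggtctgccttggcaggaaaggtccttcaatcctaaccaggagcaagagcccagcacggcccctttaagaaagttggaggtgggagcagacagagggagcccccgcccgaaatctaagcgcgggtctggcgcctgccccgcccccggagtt
Acta2 first site: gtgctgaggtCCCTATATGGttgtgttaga
Acta2 second site: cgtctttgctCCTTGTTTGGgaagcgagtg
The matches lay from -84 to -75 and from -34 to -25 in Acta2 and from -189 to -180 and from -164 to -155 in Lmod1, counted from the RefSeq start site. In Cspg4 a pair of overlapping matches ran from -238 to -228. The sequence TGGGAA was found in 1 of the 6 promoters, Acta2, from -27 to -22, overlapping the second CArG match, and in 25.6% of all promoters when both strands were read. TATAAA was found in 0 of the 6 and in 13.6% of all promoters. These are matches of letters in a window, and binding was not measured.

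Acta2 and Myh11 make the main filaments of the contractile apparatus, and both were low in the cancer control library. Acta2, smooth muscle alpha-actin (chr19:34241090-34255590, minus strand, mm10), had 1938 normalized read counts in the normal control, 2188 in normal exercise, 354 in the cancer control and 1823 in cancer exercise. Myh11, the smooth muscle myosin heavy chain (chr16:14194535-14291372, minus strand), had normalized read counts of 617, 659, 85.5 and 624 in the same order. For both genes 3 libraries lay close together and E(-)T(+) lay far below them. The levels of Myh11 in E(+)T(-), E(+)T(+) and E(-)T(-) could not be told apart within counting error. For Acta2 the same held for E(-)T(-) and E(+)T(+), whereas E(+)T(-) was slightly higher. Actg2, the gamma-actin best known from intestinal smooth muscle (chr6:83512905-83536265, minus strand), had the fewest reads of the 10 genes, with 61.2, 81.8, 19.8 and 90.0 normalized counts in the normal control and normal exercise, then the cancer control and cancer exercise libraries. The cancer control was again the lowest library, and neighbors in the order of the other 3 were within counting error.

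Tagln, Cnn1, Lmod1 and Des encode proteins that bind, regulate or brace these filaments. Tagln, the actin-bundling protein transgelin (chr9:45929619-45936058, minus strand), had 455 normalized counts in the normal control, 656 in normal exercise, 186 in the cancer control and 528 in cancer exercise. All 4 levels of Tagln differed from their neighbors by more than counting error. Cnn1, calponin 1, which dampens myosin activity (chr9:22099216-22109630, plus strand), had 341, 420, 59.3 and 344 normalized counts in the same order. Lmod1, leiomodin 1, which starts new actin filaments (chr1:135324807-135368065, plus strand), had 180, 172, 39.5 and 154. Des, the intermediate filament desmin (chr1:75360329-75368579, plus strand), had 273, 281, 48.3 and 199. In each of them E(-)T(+) was the lowest library. The E(+)T(+) level was within counting error of E(-)T(-) for Cnn1 and within that of E(+)T(-) for Lmod1, and for Des it lay between the libraries without tumor and E(-)T(+).

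Some members lie beside other genes. The annotated 3′ end of Tagln overlaps Pcsk7, a protease gene on the opposite strand, and the use of strand in the counting is not stated in the sources used here. Pcsk7 had 265 reads in the normal control, 172 in normal exercise, 162 in the cancer control and 88 in cancer exercise, an order unlike that of Tagln. Tagln had 535, 714, 170 and 452 reads in the same libraries, so that both counts lay closest in the cancer control. The order does not show whether reads of Pcsk7 were counted for Tagln, and this was not tested. Gm15179, which overlaps Des, had 0 reads in all 4 libraries. No 75-base window in the last 500 bases of the members' transcripts was found in the transcripts of another gene, the other actins included.

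**Figure D1:**
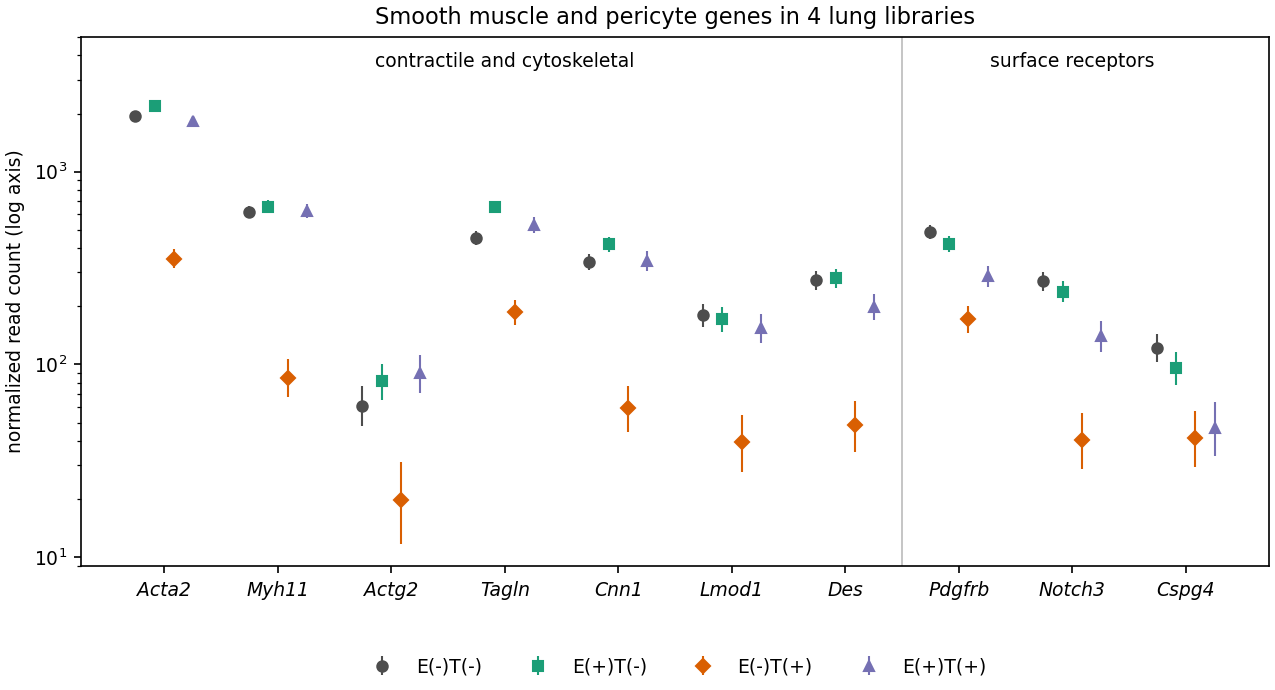
Normalized read counts (log axis) of the 10 genes in the 4 lung libraries, with vertical lines for 95% exact Poisson intervals that cover counting error alone. The cancer control library E(-)T(+) is the lowest for every gene, and for Cspg4 the E(+)T(+) library lies beside it.

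The receptors followed the same order in part. Pdgfrb, the receptor of platelet-derived growth factor B (chr18:61045150-61085061, plus strand), had 489 normalized counts in the normal control, 421 in normal exercise, 172 in the cancer control and 286 in cancer exercise. Notch3, the Notch receptor of mural cells (chr17:32120820-32166852, minus strand), had 269, 239, 40.6 and 140 in the same order. Cspg4, the NG2 proteoglycan found on pericytes (chr9:56865033-56899870, plus strand), had 122, 95.5, 41.7 and 46.9. For all 3 receptors both tumor libraries were below both libraries without tumor. Pdgfrb and Notch3 were higher in E(+)T(+) than in E(-)T(+), and for Cspg4 these 2 libraries could not be told apart within counting error.

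The first comparison asked what exercise changed in lungs without tumor, and no member was past the 2-fold limit. A total of 5.28% of the 15164 genes were higher in E(+)T(-) by 2-fold or more and 4.7% were lower. Of the members 6 were higher and 4 lower, with a median log2 difference of 0.07, against 0.00 for all genes. Tagln had the largest difference, at 0.53 (95% counting interval 0.37 to 0.69). Cnn1 was at 0.30 (0.10 to 0.50) and Acta2 at 0.18 (0.09 to 0.26). Among the receptors Pdgfrb was lower by a log2 difference of -0.22 (-0.40 to -0.04). The intervals of Myh11, Des, Lmod1, Notch3, Cspg4 and Actg2 included 0. Des, at 0.04, changed sign when library totals were used for scaling. These intervals cover the counting of reads and not differences between mice.

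The second comparison, cancer control over normal control, asked how lungs that received tumor cells differed without exercise. All 10 members were lower by 2-fold or more in E(-)T(+), with a median log2 difference of -2.30. Among all genes 25.7% were lower by 2-fold or more and 20.6% were higher, with a median of -0.03. In bulk tissue, fewer cells of a type and less RNA per cell cannot be told apart. The largest differences were those of Myh11, 7.14-fold lower (95% counting interval 5.71 to 9.24), Notch3, 6.50-fold lower (4.72 to 9.61), and Cnn1, 5.67-fold lower (4.33 to 7.80). Des was 5.56-fold lower (4.12 to 7.94), Acta2 5.46-fold (4.87 to 6.17) and Lmod1 4.47-fold (3.20 to 6.70). Tagln was the member with the smallest difference, 2.43-fold lower (2.05 to 2.92). Actg2 was 2.99-fold lower (1.83 to 5.53), Cspg4 2.87-fold (2.03 to 4.29) and Pdgfrb 2.83-fold (2.38 to 3.41). The interval of Actg2 reached past the 2-fold limit, so its count in this comparison rests on few reads. The 7 contractile and cytoskeletal genes had a median log2 difference of -2.45 and the 3 receptors one of -1.52.

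The third comparison asked what exercise changed in the presence of tumor, E(+)T(+) over E(-)T(+). Here 8 of the 10 members were higher by 2-fold or more, and Pdgfrb and Cspg4 were not. Of all genes 24.3% were higher by 2-fold or more and 17.7% lower. The median log2 difference of the members was 1.98 and that of all genes 0.01. Myh11 was 7.23-fold higher (95% counting interval 5.75 to 9.39), Cnn1 5.72-fold (4.33 to 7.92), Acta2 5.14-fold (4.57 to 5.82) and Actg2 4.37-fold (2.71 to 8.10). Des was 4.05-fold higher (2.94 to 5.88), Lmod1 3.83-fold (2.69 to 5.82), Notch3 3.40-fold (2.38 to 5.15) and Tagln 2.83-fold (2.37 to 3.40). Pdgfrb was 1.66-fold higher (1.36 to 2.05), a log2 difference of 0.73 that was 0.13 when library totals were used for scaling. For Cspg4 the log2 difference was 0.17 with an interval from -0.51 to 0.85, and it became -0.43 when library totals were used for scaling. The contractile genes had a median log2 difference of 2.13 and the receptors one of 0.73. This comparison and the second share the E(-)T(+) library, so a low value in that library lowers one and raises the other.

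**Figure D2:**
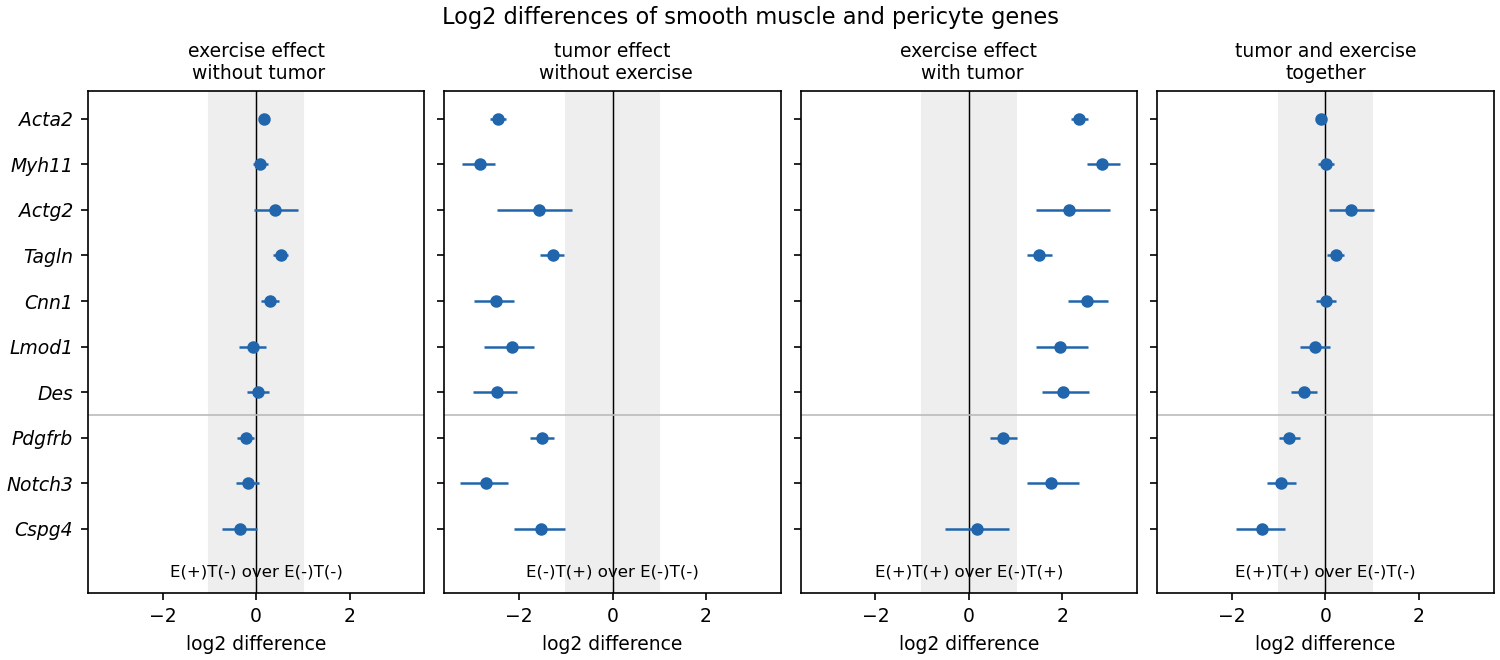
Log2 differences of the 10 genes in 4 comparisons, with horizontal lines for 95% counting intervals and grey for differences under 2-fold. The members lie near 0 without tumor, to the left of the grey band in the tumor effect without exercise, and for 8 of the 10 genes to its right in the exercise effect with tumor.

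Scaling matters for the size of the third comparison, because E(+)T(+) held the largest share of hemoglobin reads. With library totals alone the median of all genes moved to -0.59, and the higher genes made up 31.6% of those past the limit, compared with 57.8% as deposited. The members' median was then 1.38, and 7 of the 10 genes were higher by 2-fold or more, against 16.4% of all genes. Relative to the median of all genes, 9 of the members' differences were the same at 2 decimals under both scalings, and that of Actg2 was 2.12 and 2.14. Such equality follows from the arithmetic, since a change of scaling moves all genes by nearly the same amount, and is no check of the values.

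The fourth comparison, E(+)T(+) over E(+)T(-), set exercised mice given tumor cells against exercised mice without them. Cspg4 alone among the members was past the limit, lower by a log2 difference of -1.01 (95% counting interval -1.59 to -0.49). It lay at the limit, and with a pseudocount of 4 it was -0.97 and no member was past it. As deposited, 13% of all genes were lower by 2-fold or more and 14.9% higher. Under library totals 2 members were past the limit, Notch3 at -1.17 and Cspg4 at -1.42, against 24.2% of all genes lower under that scaling. The members' median was -0.30, and that of all genes -0.00. Notch3 was at -0.76 (-1.09 to -0.45), Pdgfrb at -0.55 (-0.78 to -0.33) and Des at -0.50 (-0.78 to -0.23). Acta2, Tagln and Cnn1 lay between -0.26 and -0.31, with intervals below 0, and those of Myh11, Lmod1 and Actg2 included 0. Actg2, at 0.14, changed sign under library totals, and Myh11 and Lmod1 moved from -0.08 and -0.15 to -0.49 and -0.56. That scaling moved the median of all genes to -0.41 and the share of higher genes among those past the limit from 53.5% to 28.2%.

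The fifth comparison set the cancer exercise library against the normal control, E(+)T(+) over E(-)T(-), and here the contractile genes lay nearer to the normal control than the receptors. The contractile genes had a median log2 difference of 0.01 and the receptors one of -0.94. Myh11 stood at 101% of its E(-)T(-) level, Cnn1 at 101%, Acta2 at 94.1% and Lmod1 at 85.7%. As deposited, their intervals all included equal levels. Tagln was at 116%, Actg2 at 146% and Des at 73.0%, and for these 3 genes the interval of the deposited difference lay off 0. Pdgfrb was at 58.7% (log2 difference -0.77, -0.99 to -0.55), Notch3 at 52.3% (-0.94, -1.26 to -0.63) and Cspg4 at 39.0% (-1.36, -1.92 to -0.86). In E(-)T(+) the same 3 receptors were at 35.3%, 15.4% and 34.8%. Cspg4 was the 1 member past the limit, against 14.4% of all genes lower by 2-fold or more and 14.8% higher. Under library totals 3 members were past the limit, Pdgfrb at -1.27, Notch3 at -1.43 and Cspg4 at -1.85, and with totals without the hemoglobin genes 2 were, Notch3 at -1.11 and Cspg4 at -1.53. Under these scalings 28.6% and 18.4% of all genes were lower by 2-fold or more, so that neither count stands apart from the share of all genes. The members' median was -0.15, and that of all genes -0.02. Under library totals the median of all genes moved to -0.52 and the share of higher genes from 50.8% to 24.3%. Tagln, Myh11 and Cnn1 then fell below 0, at -0.28, -0.48 and -0.48. Acta2 was at -0.59, Lmod1 at -0.72, Des at -0.95 and Actg2 at 0.06 under that scaling. Totals without the hemoglobin genes gave a share of 40.2%, with the median of all genes at -0.20 and Myh11 and Cnn1 at -0.16. The difference between contractile genes and receptors was not tested.

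**Figure D3:**
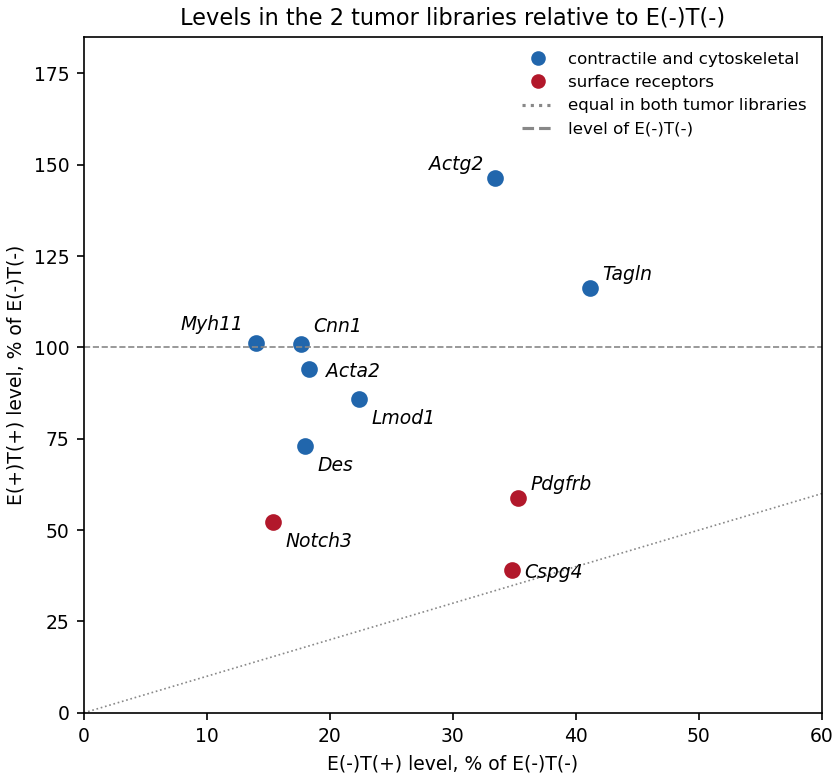
Levels of the 10 genes in E(-)T(+) (horizontal axis) and E(+)T(+) (vertical axis), each as a percent of the E(-)T(-) level. The 7 contractile and cytoskeletal genes lie between 73.0% and 146% on the vertical axis and the 3 receptors between 39.0% and 58.7%, with Cspg4 next to the line of equal levels.

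As deposited, the signed exercise effect with tumor lay above that without tumor, beyond counting error, in all members but Cspg4. The difference of the log2 differences had a median of 1.96 over the members, from 0.51 for Cspg4 to 2.76 for Myh11, and of 0.02 over all genes. It was 2.22 for Cnn1 (counting SE 0.24), 2.19 for Acta2 (0.10), 2.01 for Lmod1 (0.31), 1.98 for Des (0.27) and 1.94 for Notch3 (0.30). Actg2 had 1.72 (0.44), Tagln 0.97 (0.15) and Pdgfrb 0.95 (0.17). For Cspg4 the counting SE was 0.38, so that its 2 exercise effects could not be told apart within counting error. Pdgfrb was the member whose exercise effect had opposite signs in the 2 settings with both counting intervals off 0 in the deposited values. Under library totals its effects were -0.30 and 0.13. Relative to the median of all genes they were -0.22 and 0.72 under both scalings, which follows from the arithmetic of rescaling and is no check. With library totals the effects without and with tumor were 0.44 and 0.89 for Tagln, and -0.43 and -0.43 for Cspg4. The medians of all genes were then -0.08 and -0.59.

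Other genes of contraction did not all follow the members. Of 26 further genes of the contractile apparatus and its adhesions, 12 were lower and 3 higher by 2-fold or more between cancer control and normal control, with a median log2 difference of -0.34. Itga8, an integrin subunit of smooth muscle, had 580 normalized counts in the normal control, 434 in normal exercise, 15.4 in the cancer control and 125 in cancer exercise. Synm, the intermediate filament protein synemin that partners desmin, had 1650, 1634, 49.4 and 323. These were the largest falls of the list in the cancer control at a mean of 50 or more normalized counts, and in cancer exercise both were still below the normal control, with log2 differences of -2.20 and -2.35. Pgm5, an adhesion protein of muscle, had 783, 1019, 81.1 and 1064 normalized counts. Myl9, the regulatory light chain of smooth muscle myosin, had 941, 1113, 216 and 2423, and in cancer exercise it was above the normal control by a log2 difference of 1.36 (1.26 to 1.47). Mylk, the kinase that phosphorylates this light chain, had 4438, 6059, 1451 and 4030. Cald1, Actn1 and Nexn went the other way. Cald1, caldesmon, an actin-binding protein also made in cells that are not muscle, had 2335, 3328, 6431 and 2764 normalized counts, with its highest level in E(-)T(+). Actn1, an alpha-actinin, had 1984, 1802, 4646 and 2720, and Nexn, an actin-binding protein, 771, 1045, 1680 and 657. In the exercise effect with tumor 11 of the 26 genes were higher and 3 lower by 2-fold or more, with a median of 0.48. For this list and those below, the shares of all genes past the limit are the measure. They were 25.7% lower and 20.6% higher in the tumor effect without exercise. In the exercise effect with tumor they were 24.3% higher and 17.7% lower.

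Most genes of channels and contraction signaling were low in the cancer control. Of 16 such genes, 12 were lower and 0 higher by 2-fold or more in the tumor effect without exercise (median log2 difference -2.36), and 12 were higher and 2 lower in the exercise effect with tumor (median 1.79). Pde5a, the phosphodiesterase that breaks down cyclic GMP, had 890, 908, 34.0 and 325 normalized counts in the normal control and normal exercise, then the cancer control and cancer exercise libraries. The subunits of the nitric oxide receptor guanylate cyclase, Gucy1a3 and Gucy1b3, had 2529, 2103, 181 and 1294, and 1096, 1196, 82.3 and 932. All 3 genes thus had their lowest level in E(-)T(+). Cacna1c, the pore of the L-type calcium channel, differed, with 69.7, 41.3, 94.2 and 43.3.

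Of 16 further pericyte genes, 10 were lower and 1 higher by 2-fold or more in the tumor effect without exercise (median log2 difference -1.94), and 9 were higher and 0 lower in the exercise effect with tumor (median 1.53). Cox4i2, a mitochondrial subunit enriched in pericytes, had 243, 352, 20.9 and 221 normalized counts in the same order of libraries. Itga1, an integrin subunit, had 331, 458, 24.2 and 109. Rgs5, a regulator of G protein signaling widely used as a pericyte marker, was the gene that was higher. Its 6, 41, 23 and 24 reads were few, and its log2 difference in the tumor effect without exercise was 2.13 (0.97 to 3.89). Kcnj8, Abcc9, Foxs1, Steap4 and Lamc3 of the list were inside the limit in that comparison. Their log2 differences were -0.16 (-0.72 to 0.38), -0.62 (-1.16 to -0.12), -0.11, 0.05 and 0.24, so that the pericyte genes did not fall as one. The summed level of the 16 genes in E(-)T(+) was 23.4% of that in E(-)T(-), and that of the 10 members was 22.1%. The largest part of the sum of the 16 was Angpt1, with 921 normalized counts in E(-)T(-) and 232 in E(-)T(+).

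Several ligands of the receptors are made by endothelial cells. Pdgfb, which encodes the main ligand of Pdgfrb, had 451 normalized counts in the normal control, 273 in normal exercise, 47.2 in the cancer control and 24.7 in cancer exercise. It was lowest in E(+)T(+), with a log2 difference of -4.14 (-4.90 to -3.57) from the normal control. Pdgfrb itself was higher in E(+)T(+) than in E(-)T(+) as deposited, unlike Pdgfb. Its log2 difference of 0.73 became 0.13 under library totals. Pdgfd, which encodes another ligand of Pdgfrb and is named after its values were seen, had 0, 3, 0 and 18 reads, so that it too was highest in E(+)T(+) among the tumor libraries, at few reads. Pdgfc, likewise named afterwards, had 33, 10, 33 and 13 reads. Pdgfa, a ligand that acts mainly on Pdgfra, had 1155, 711, 448 and 640. Pdgfra, the receptor of fibroblasts, had 1188, 904, 1280 and 1257. The 6 further genes of the pathway had a median log2 difference of -0.22 in the tumor effect without exercise, with 2 lower and 0 higher by 2-fold or more, and of 0.19 between the tumor libraries, with 1 higher and 1 lower. In so short a list these counts do not stand apart from the shares of all genes. Those were 25.7% lower in the former comparison, and 24.3% higher and 17.7% lower in the latter.

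In the Notch pathway, 10 of 14 further genes were lower and 1 higher by 2-fold or more between cancer control and normal control, with a median log2 difference of -2.36. Dll4, a Notch ligand of endothelial cells, had 559 normalized counts in the normal control, 360 in normal exercise, 49.4 in the cancer control and 240 in cancer exercise. Jag1, a ligand carried by endothelial cells and smooth muscle, had 469, 311, 106 and 225. Both ligands were in E(+)T(+) below their normal control level, as Notch3 was. The ligands Dll1, at -0.36 (-0.76 to 0.03), and Jag2, at 0.53 (-0.02 to 1.10), were within counting error of that level. The target genes Hey1 and Heyl, transcriptional repressors switched on by Notch, had 570, 447, 49.4 and 567, and 136, 106, 17.6 and 134. In E(+)T(+) their log2 differences from E(-)T(-) were -0.01 (-0.18 to 0.16) and -0.02 (-0.37 to 0.34). Hes1, a target also controlled by other signals, had 2675, 2063, 408 and 952, and remained at -1.49 (-1.60 to -1.38). Rbpj, the DNA-binding partner of Notch, was highest in E(-)T(+), with 387, 347, 2294 and 531. Over the pathway 9 genes were higher and 1 lower by 2-fold or more in the exercise effect with tumor, with a median of 1.57.

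**Figure D4:**
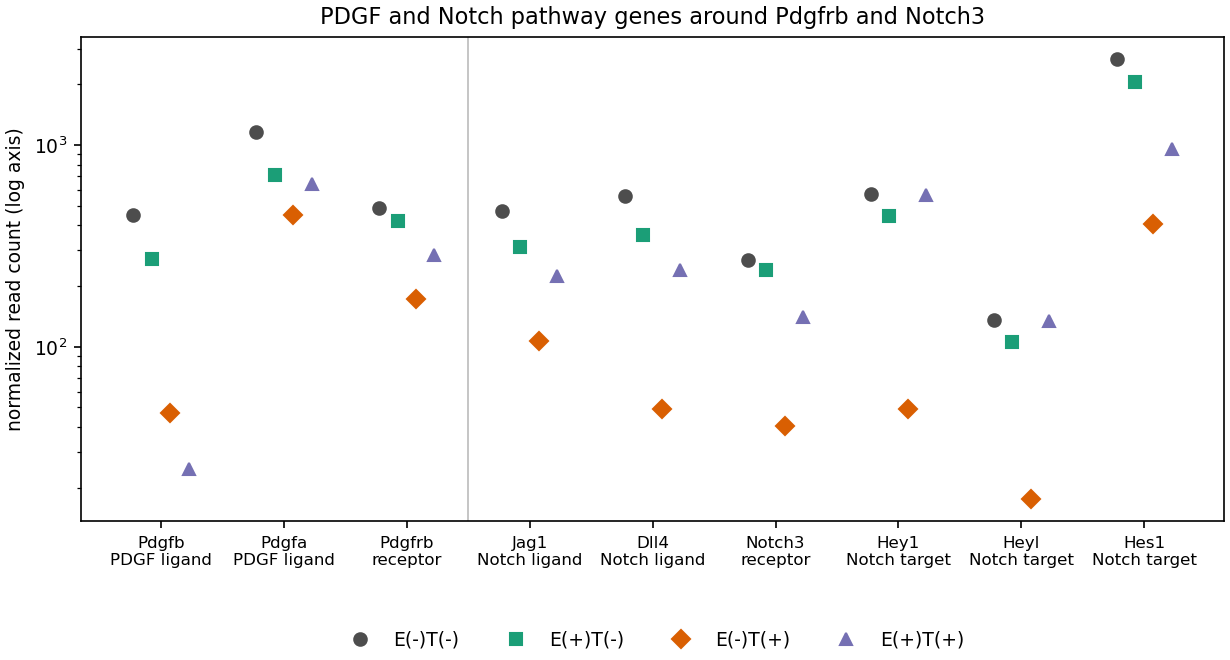
Normalized read counts (log axis) of ligands, receptors and targets in the PDGF pathway (left) and the Notch pathway (right) in the 4 libraries. E(-)T(+) is the lowest library for all shown genes but Pdgfb, which is lowest in E(+)T(+), and Hey1 and Heyl in E(+)T(+) lie at their E(-)T(-) level.

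Among 12 regulators of the contractile program the levels were mixed. Srf, the factor that binds the CArG box, had 1078 normalized counts in the normal control, 1561 in normal exercise, 1309 in the cancer control and 1856 in cancer exercise, so its level in the cancer control was not below the normal control. Myocd, its coactivator in smooth and heart muscle, had 21, 48, 1 and 38 reads in the same order. Its log2 read ratio in the tumor effect without exercise had an interval from -9.40 to -1.39, which a single read in E(-)T(+) makes wide. Foxf1, a factor of lung mesenchyme, had 1824, 2034, 663 and 3662 normalized counts, Gata6, 984, 511, 181 and 449, and Mef2c, a factor of muscle and endothelium, 1238, 1453, 396 and 1433. These 3 genes had their lowest level in E(-)T(+). Fhl2, a cofactor of Srf, was higher there, with 32.2, 22.0, 576 and 81.9. Of the 12 genes 5 were lower and 1 higher by 2-fold or more in the tumor effect without exercise (median log2 difference -0.37), and 4 were higher and 2 lower in the exercise effect with tumor (median 0.69). Among all genes 25.7% were lower and 20.6% higher in the former, and 24.3% higher and 17.7% lower in the latter. In so short a list the regulator counts do not stand apart from those shares.

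Markers of other lung cells moved in the same libraries. All 10 endothelial markers were lower by 2-fold or more in the tumor effect without exercise (median log2 difference -3.24) and all 10 were higher in the exercise effect with tumor (median 2.96). Their summed normalized count was 30180 in the normal control, 31720 in normal exercise, 4100 in the cancer control and 30580 in cancer exercise, and none was at 0 reads. The largest falls were those of the vessel receptors Tek and Kdr, at -4.18 and -3.71. For alveolar epithelium, 9 of 10 markers were lower by 2-fold or more in E(-)T(+) (median -2.64), the other being Pdpn at -0.59, and 9 were higher by 2-fold or more in E(+)T(+) than in E(-)T(+) (median 2.27), and their summed normalized count was 225200, 272300, 33760 and 179100 in the order of the groups above, with none at 0 reads. The 12 fibroblast markers had a median of 0.18 in the tumor effect without exercise, with 4 higher and 4 lower by 2-fold or more, and a summed level at 82.2% of the normal control. In the exercise effect with tumor their median was -0.10, with 5 higher and 3 lower, and the summed level in cancer exercise was 80.9% of the normal control. Of this list the collagen gene Col1a2 was higher by 2.78 and the factor Tcf21 lower, at -4.77, in the tumor effect without exercise. The summed level of the fibroblast markers hides opposite moves. Inmt, most of the sum in the normal control, went from 32740 normalized counts there to 1379 in the cancer control. Col1a2, the largest part in the cancer control, went from 2622 to 17950. The 7 activated fibroblast markers that passed the filter had medians of 0.65 in the tumor effect without exercise and -0.16 in the exercise effect with tumor, with 3 higher and 1 lower in the former and 2 higher and 3 lower in the latter. They did not move as one, since between normal control and cancer control the matrix protein gene Fn1 went from 1363 to 3273 normalized counts and Timp1 from 22.0 to 1019, whereas Postn went from 1268 to 47.2. The summed level of all 8, most of it Fn1 in both tumor libraries, was 163% of the normal control in the cancer control and 162% in cancer exercise. The 6 mesothelial markers went both ways in the tumor effect without exercise, with 1 higher and 3 lower by 2-fold or more (median -0.85), and in the exercise effect with tumor their median was 0.33, with 1 higher and 1 lower. Their summed level was 351% of the normal control in the cancer control and 126% in cancer exercise, most of it from Msln, the surface protein mesothelin, which had 527 normalized counts in the normal control and 2950 in the cancer control. The 8 erythroid markers had a median of -3.40 in the tumor effect without exercise, and of 5.14 in the exercise effect with tumor. The 8 cell division markers had a median of 5.10 in the tumor effect without exercise and -2.02 in the exercise effect with tumor. In normal exercise over normal control all 8 were higher, with a median of 1.04. There 4 of them were higher by 2-fold or more, against 5.28% of all genes. The cell division markers were far higher in the cancer control. Birc5, for example, had 45.8 normalized counts in the normal control, 106 in normal exercise and 2457 in the cancer control. The median share of 1.47% of the cancer control level, found above in normal exercise, was not taken out of these markers. Its part in their rise was not tested. The low level in E(-)T(+) was shared with markers of vessels and alveoli, and the part that the makeup of the tissue has in the members' differences was not tested.

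Muscle other than smooth muscle was read because Des is also made in heart and skeletal muscle. Of 12 heart muscle markers 6 were lower and 0 higher by 2-fold or more in the tumor effect without exercise (median log2 difference -1.08), and 8 were higher and 1 lower in the exercise effect with tumor (median 1.24). Their summed normalized count was 2084 in the normal control, 2219 in normal exercise, 791 in the cancer control and 1740 in cancer exercise, with no marker at 0 reads. Actc1, the actin of heart muscle, had 439, 524, 56.0 and 220 normalized counts, with the libraries in the same order as for Des. The same order was found for the markers Myl4, Myl7 and Tnnc1, and the other markers of the list had other orders. Nppa, the atrial natriuretic peptide, had 81.7, 59.7, 71.2 and 5.98 (-3.37 in the exercise effect with tumor), and the myosin Myh6 had 205, 221, 87.7 and 287, with its highest level in cancer exercise. The share of Des reads that came from heart muscle was not tested. Skeletal muscle markers were sparse, with a summed level of 346, 285, 278 and 541, and Myh2 and Myh4 at 0 reads in both libraries without tumor. The 9 of 12 that passed the filter had a median log2 difference of -0.19 in the tumor effect without exercise and of 1.40 in the exercise effect with tumor.

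**Figure D5:**
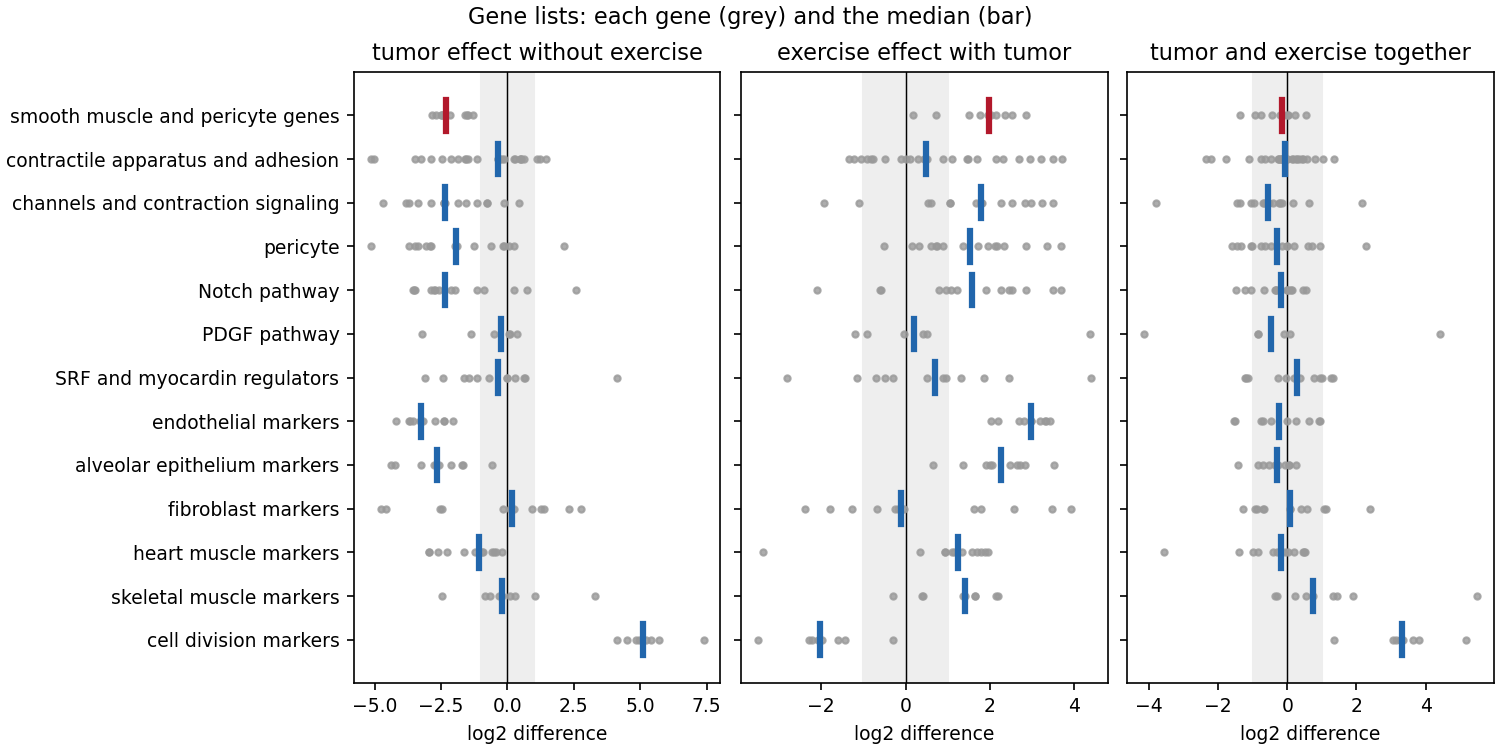
Log2 differences of each gene (grey points) and the median (bar) for the 10 members (red bar) and 12 other gene lists in 3 comparisons, with grey bands for differences under 2-fold. The members' medians of -2.30, 1.98 and -0.15 lie between those of the endothelial markers and 0 in the first 2 panels, and the cell division markers lie on the opposite side.

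The genes with the profile most like that of the members were found by the root mean square distance of centred log2 values over the 4 libraries, among genes that averaged 50 or more normalized counts. The median centred profile of the members was 0.62 in the normal control, 0.71 in normal exercise, -1.65 in the cancer control and 0.37 in cancer exercise. Closest were Dmd, which encodes the muscle membrane protein dystrophin, at a distance of 0.025, and Echdc2 at 0.033. Liph (0.060), Pros1 (0.061), Plekhg1 (0.062) and Fabp3 (0.066) followed. Pros1 encodes protein S, an anticoagulant also made by endothelium, and Fabp3 encodes the fatty acid-binding protein of heart muscle. Among the members Des (0.094) and Lmod1 (0.099) were closest to the common profile, and Pdgfrb (0.488) and Cspg4 (0.674) farthest. The profile has 4 points, so that many genes can lie close to it.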

How the data were processed

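Lung RNA of 4 groups was sequenced by the authors with a 3′ mRNA kit (QuantSeq), as 75-base single reads. Per the methods and the submitters' processing notes, the authors aligned reads with Bowtie2 (mm10), counted them per gene with bedtools and brought the libraries to a common size by quantiles in edgeR. Tool versions, annotation and strand use are not given in the sources used here. The deposited log2 values, made by the authors, were found to be log2(normalized count + 1) at 3 decimals. Whole reads were recovered by inverting this adjustment (fitted dispersion 0.372, own code in R 4.3.3): 100% of the values lay within 0.001, and 94.6% of them were resolved to 1 read. The recovery was tested on data simulated with the same model and fitted settings. That tests the inversion alone, and cannot show whether the authors' adjustment has this form.

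Groups were taken from the sample titles. Each comparison subtracts the log2 value of one library from that of another, with a limit of 2-fold and a filter at a mean normalized count of 4, so that a fold change carries a pseudocount of 1 and understates the change of low genes. With 1 library per group no test was made and no p-value is given. Intervals are 95% exact (Clopper-Pearson) intervals of the read ratio, or exact Poisson intervals of a level, and cover counting error only, since PCR copies are not independent molecules. Members had 18 to 2382 reads per library, which sets this counting precision.

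The members and 15 gene lists were chosen with earlier results of these data known. All 10 members are named. Of each list the rule names, among genes averaging 50 or more normalized counts, the 2 largest rises and the 2 largest falls in the tumor effect without exercise and in the exercise effect with tumor, and 11 partners of the members. A selection of these is given. Further genes are named outside the rule, with their values seen. They are Hes1, Dll1, Jag2, Pdgfc, Pdgfd, Pdpn, Myh2, Myh4, Myh6, Myl4 and Tnnc1, and the pericyte genes Kcnj8, Abcc9, Foxs1, Steap4, Lamc3 and Angpt1. Gene positions are from GENCODE M21 (GRCm38, which is mm10) and promoters from RefSeq. Alternatives were other scalings (library totals, median-of-ratios, totals without hemoglobin genes), a pseudocount of 4, other filters and limits of 1.5-fold and 3-fold.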

Additional observations from a re-analysis of the deposited data

Results flagged for a closer look

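Pdgfrb, the receptor of platelet-derived growth factor B, had exercise effects of opposite sign in the 2 settings. Its log2 difference was -0.22 without tumor (95% counting interval -0.40 to -0.04) and 0.73 with tumor (0.44 to 1.03). With library totals as the scaling, which put the median of all genes at -0.59 in the exercise effect with tumor, the values were -0.30 and 0.13. Relative to the median of all genes the values were -0.22 and 0.72 under both scalings, which follows from the arithmetic of rescaling and is no check. Each rests on 1 library per group, and the difference between the effects was not tested.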

How the results depend on the processing

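Across the alternatives, 53 of the counts and medians given for the members stayed within 1.5 times, or within the spread allowed for a median, and 12 did not, and none changed direction past the limit. At a 3-fold limit 6 members were lower in the tumor effect without exercise, in place of 10, against 17.1% of all genes lower by 3-fold. With library totals alone the members' median was 1.38 in the exercise effect with tumor, -0.71 in the tumor effect with exercise and -0.65 for tumor and exercise together, which is the shift of all genes under that scaling. In the tumor effect with exercise the count of members past the limit was 2 under library totals and at 1.5-fold, and 0 at 3-fold and with a pseudocount of 4, since Cspg4 lay at the limit, and Notch3 was the second member under library totals. The shares of all genes lower were 24.2%, 24.6%, 5.35% and 11.5% under these settings. For tumor and exercise together it was 3 under library totals and at 1.5-fold, 2 with totals without the hemoglobin genes and 0 at 3-fold, against 28.6%, 25.8%, 18.4% and 6.05% of all genes lower. Removing from the normal exercise library a share of the cancer control level, an alternative chosen after seeing the data, is not counted here, because it takes at most 0.641% from a member and could hardly move a count. No paired analysis was possible because each group has 1 library. Depth limits Actg2, Cspg4, Lmod1 and Notch3 in E(-)T(+), which had 18, 38, 36 and 37 reads. Leaving out a library was not possible with 1 per group, and no alternative measures the difference between mice.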
